A study of Mus musculus with 15 samples.

Results

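The genes described here encode 7 receptors for fatty acids and related metabolites, chosen by name from the 38283 genes of the sequencing table: Ffar1, Ffar2, Ffar3, O3far1 (an older symbol for Ffar4), Gpr119, Gpr84 and Gpr81 (an older symbol for Hcar1). Their RNA was measured in sorted pancreatic islet cells of C57BL/6 mice. Alpha cells (n = 5), which secrete glucagon, and beta cells (n = 4), which secrete insulin, were sorted from Glu-Venus animals. There the proglucagon promoter drives the fluorophore Venus, and beta cells were a Venus-negative fraction chosen on scatter and autofluorescence. Delta cells (n = 6), which secrete somatostatin, were sorted from Sst-CreXROSA26EYFP/EYFP animals, where Cre under the somatostatin promoter switches on EYFP. Each sample held islets of several mice, so replicates are pools, and for delta cells the mouse line changes together with the cell type. Levels are FPKM, which scale fragments by transcript length and by the reads mapped in the sample, and allow genes to be compared with each other.

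All 7 genes encode G protein-coupled receptors whose ligands are nutrients or their products, so that cells bearing them can sense fuel directly. Ffar1 and O3far1 bind long-chain fatty acids, and Ffar1 is known in beta cells as a receptor through which fatty acids enhance insulin secretion. Gpr119 binds fatty acid amides and lysophospholipids and raises cyclic AMP through Gs. Gpr84 binds medium-chain fatty acids and is best known from macrophages and other myeloid cells. Ffar2 and Ffar3 bind the short-chain acids made by gut bacteria, and Gpr81 binds lactate and acts through Gi.

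The mean of Gpr119, Ffar2 and Gpr81 was highest in alpha cells and that of O3far1 and Gpr84 in delta cells. For Ffar1 and Ffar3 the order of alpha and beta cells rested on single samples. The mean of Ffar1 in beta cells was 1.18 times that in alpha cells (limma adjusted p = 0.642), and was the lower one without alpha cell replicate 3 or without beta cell replicate 3. The mean of Ffar3 was 2.57 FPKM in alpha and 1.39 FPKM in beta cells (limma adjusted p = 0.992), but 0.910 FPKM in alpha cells without replicate 3, and the medians were 0.219 and 1.51 FPKM. In alpha cells the means ran in the order Gpr119, Ffar2, Gpr81, O3far1, Ffar1, Ffar3 and Gpr84. Gpr119 was the highest of the 7 in 5 of 5 alpha cell samples, and the sample ranges of all neighbours in this order overlapped. In beta cells the order was Gpr119, Ffar1, Ffar2, Ffar3, O3far1, Gpr81 and Gpr84. The ranges of the first 4 overlapped between neighbours, and the last 3 lay below all of them. The leading gene differed between beta cell samples, being Gpr119 in replicates 1 and 2, Ffar1 in replicate 3 and Ffar2 in replicate 4. In delta cells the order was O3far1, Ffar2, Gpr84, Gpr119, Gpr81, Ffar1 and Ffar3. O3far1 led in 6 of 6 delta cell samples with a range that did not overlap that of Ffar2, whereas the ranges of all later neighbours overlapped.

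The FPKM of the 7 genes summed to 71.3 ± 31.1 in the alpha (SD, n = 5), 15.9 ± 9.10 in the beta (SD, n = 4) and 36.3 ± 14.9 in the delta cell samples (SD, n = 6). Gpr119 made up between 32.3% and 62.8% of this sum in alpha cells, and O3far1 between 63.6% and 77.1% in delta cells. Alpha cell replicate 2 had the largest sum, 123 FPKM, and beta cell replicate 4 the smallest, 8.61 FPKM. The summed FPKM of all genes also differed between samples, as given below, and the sums of the 7 were not scaled for that.

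**Figure D1:**
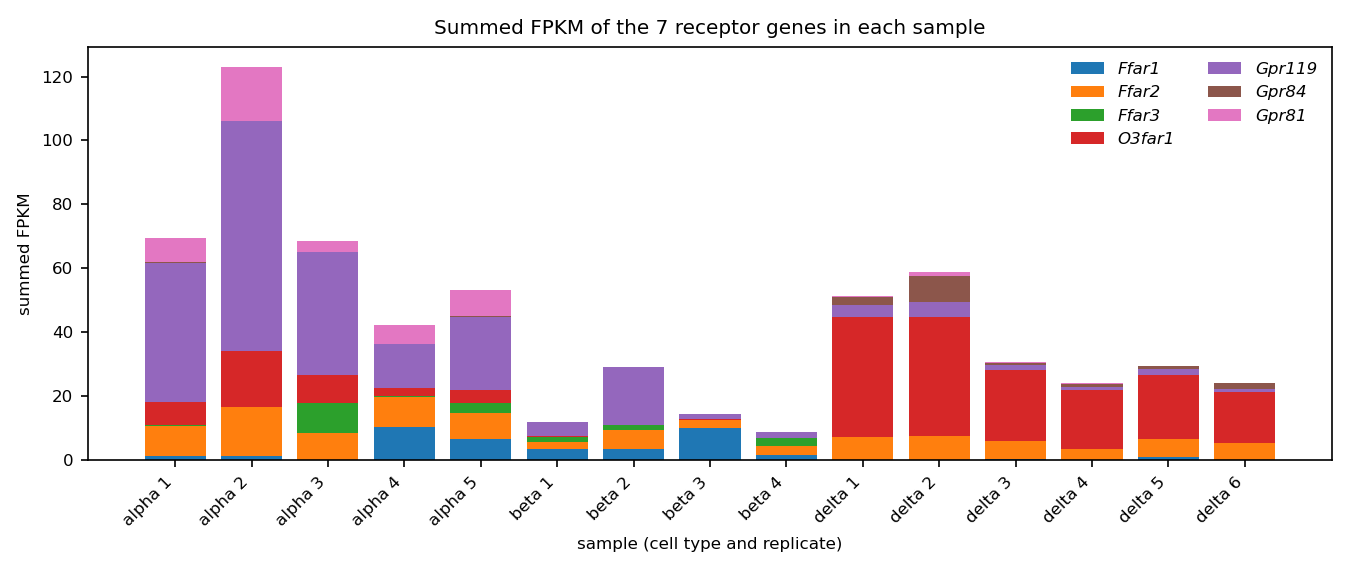
Summed FPKM (vertical axis) of the 7 receptor genes in each of the 15 samples (horizontal axis), with 1 colour per gene. Gpr119 takes the largest part of every alpha cell bar, from 32.3% to 62.8%, and O3far1 the largest part of every delta cell bar, from 63.6% to 77.1%.

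Differences between cell types were tested with limma on log2(FPKM + 1), fitting the 15 samples together, over the 14405 genes with a mean above 1 FPKM in at least 1 cell type. An adjusted p (Benjamini-Hochberg over all genes tested) under 0.05 was counted as a call. This scale understates changes of genes with low values. All 7 genes passed the filter, but Gpr84 did so only through delta cells and Gpr81 only through alpha cells, so that their passing rests on the cell type in which they are high. Across the 3 cell types, 6 of the 7 were called, Ffar3 being the exception, where 16.0% of all genes tested were called. Between beta and alpha cells 4 were called (Ffar2, O3far1, Gpr119 and Gpr81, all lower in beta cells), against 7.66% of all genes. Between delta and alpha cells 4 were called (O3far1 and Gpr84 higher, Gpr119 and Gpr81 lower in delta cells), against 6.81% of all genes. Between delta and beta cells 3 were called (O3far1 and Gpr84 higher, Ffar1 lower in delta cells), against 14.7% of all genes. In bulk samples such as these, fewer cells with a transcript and less RNA per cell cannot be told apart.

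**Figure D2:**
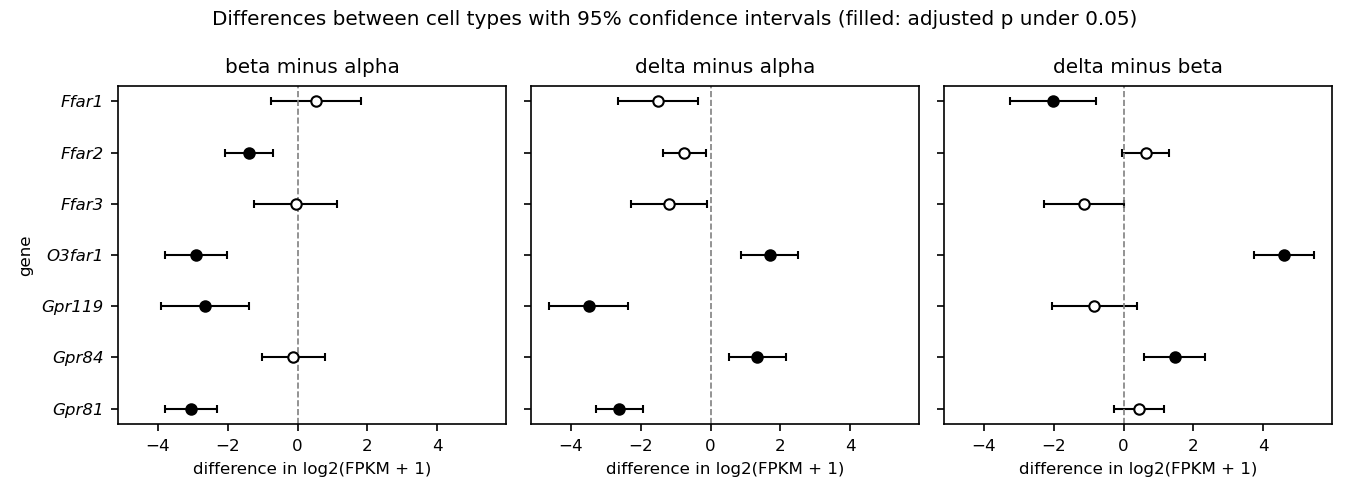
Differences in mean log2(FPKM + 1) between pairs of cell types (horizontal axis) for the 7 receptor genes (vertical axis), with 95% confidence intervals from limma and filled circles where the adjusted p was under 0.05. O3far1 and Gpr84 have filled circles right of 0 in both delta cell panels, and Gpr119 and Gpr81 have filled circles left of 0 in both panels that compare with alpha cells.

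The samples also parted in a way that crosses the cell types. Ribosomal protein genes (84 in all) summed to 65484 to 140746 FPKM in alpha cell replicates 1 to 3, beta cell replicate 2 and delta cell replicates 1 and 2, and to 7907 to 38693 FPKM in the remaining 9. The split was not particular to these genes. The FPKM of all genes summed to 1.25e+07 to 2.63e+07 in the former 6 samples and to 2.82e+06 to 4.67e+06 in the other 9. Within the alpha and the delta cells, all samples of the set with the higher ribosomal protein sum had more O3far1 and more Gpr119 than all samples of the other set, so levels are also given by set below. Reads could be resolved in 6 samples, with 7.43 M to 10.9 M in alpha cell replicate 2 and delta cell replicates 1 and 2, and 25.4 M to 30.5 M in alpha cell replicate 5 and delta cell replicates 3 and 4. Depth is unknown in the remaining 9. The hormone genes followed the labels. Gcg, which encodes glucagon, had a mean of 273077 FPKM in alpha cells, and its mean in beta and delta cells was 0.233% and 0.189% of that. Sst, which encodes somatostatin, was in alpha cells at 0.992% of its mean in delta cells, and Ins2, an insulin gene, was at 1.87% (alpha) and 1.95% (delta) of its mean in beta cells.

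**Figure D3:**
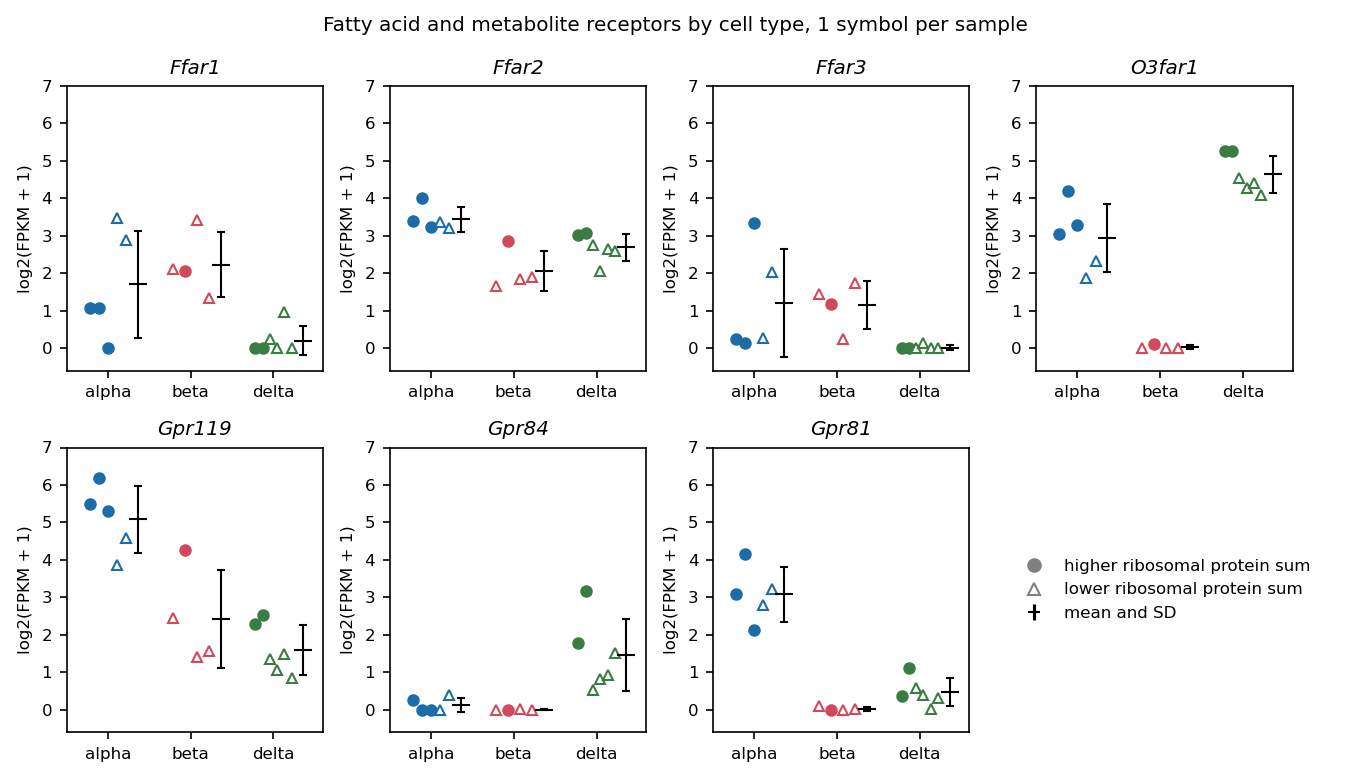
Level of each receptor gene as log2(FPKM + 1) (vertical axis) in alpha (n = 5), beta (n = 4) and delta cells (n = 6), 1 symbol per sample, with the mean and SD in black. Filled circles mark the 6 samples whose ribosomal protein genes summed to more FPKM, and open triangles the other 9. O3far1 is near 0 in beta cells and highest in delta cells (mean 25.3 FPKM), and Gpr81 is high in alpha cells alone (mean 8.42 FPKM).

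For the genes with the clearest differences between cell types, and for Ffar3, whose start lies beside Ffar1, the 250 bases before the annotated start are shown from RefSeq (GRCm38.p6), each written 5′ to 3′ on the strand of the gene. Capitals mark a cyclic AMP response element, TGACGTCA, the one motif found in these 4 windows. The windows lie at chr19:38096829-38097078 (plus strand) for O3far1, chrX:48674479-48674728 (minus strand) for Gpr119, chr5:123880004-123880253 (minus strand) for Gpr81 and chr7:30856179-30856428 (minus strand) for Ffar3.
O3far1: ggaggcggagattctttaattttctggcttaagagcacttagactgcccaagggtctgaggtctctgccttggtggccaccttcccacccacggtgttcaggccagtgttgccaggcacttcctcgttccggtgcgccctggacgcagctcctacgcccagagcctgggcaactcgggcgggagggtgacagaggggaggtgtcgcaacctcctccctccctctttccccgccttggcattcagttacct
Gpr119: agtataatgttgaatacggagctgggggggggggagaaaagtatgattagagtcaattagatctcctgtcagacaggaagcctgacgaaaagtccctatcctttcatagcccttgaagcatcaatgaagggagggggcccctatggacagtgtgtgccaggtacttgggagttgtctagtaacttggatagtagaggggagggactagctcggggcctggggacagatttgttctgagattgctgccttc
Gpr81: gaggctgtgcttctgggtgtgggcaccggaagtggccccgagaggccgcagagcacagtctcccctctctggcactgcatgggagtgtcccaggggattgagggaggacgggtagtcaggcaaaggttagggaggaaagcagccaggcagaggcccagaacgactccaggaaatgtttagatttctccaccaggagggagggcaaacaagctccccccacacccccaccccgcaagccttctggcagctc
Ffar3: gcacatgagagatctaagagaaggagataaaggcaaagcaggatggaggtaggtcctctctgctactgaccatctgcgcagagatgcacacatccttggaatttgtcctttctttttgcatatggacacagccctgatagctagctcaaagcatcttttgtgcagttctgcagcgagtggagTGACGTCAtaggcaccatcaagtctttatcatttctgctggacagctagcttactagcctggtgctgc

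Both strands of all windows were searched for TAATTA (a homeodomain core), TGTTTAC (a forkhead site), TGCTGA (a Maf half-site) and TGACGTCA, of which TAATTA and TGACGTCA read the same on both strands. They occur in 4.84%, 3.17%, 16.1% and 1.55% of the 32851 RefSeq promoter windows of this length. Among the 7 genes, TGACGTCA occurred once upstream of Ffar3, and TGCTGA once upstream of each of Ffar1, Gpr84 and the first of the 4 annotated starts of Ffar2. The windows of O3far1, Gpr119 and Gpr81 held none of the 4 letter strings. Binding was not measured, and these matches are a description of sequence.

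Among the receptors for long-chain fatty acids, O3far1 (ENSMUSG00000054200; chr19:38097071-38114263, plus strand, 3 exons) differed most between cell types. In delta cell replicates 1 to 6 it was at 37.4, 37.3, 22.3, 18.4, 20.3 and 16.1 FPKM. In alpha cell replicates 1 to 5 it was at 7.29, 17.5, 8.86, 2.67 and 3.99 FPKM, and in beta cell replicates 1 to 4 at 0.0142, 0.0842, 0.0154 and 0 FPKM. All beta cell samples lay below all others, and alpha and delta cells overlapped only in that alpha cell replicate 2 exceeded delta cell replicate 6. Mean levels were 25.3 ± 9.56 (SD, n = 6) for delta cells, 8.07 ± 5.84 (SD, n = 5) for alpha cells and 0.0284 ± 0.0378 FPKM (SD, n = 4) for beta cells. Delta cells exceeded beta cells in O3far1 by 4.60 on the log2(FPKM + 1) scale (SE 0.407, limma adjusted p = 1.52e-06), and alpha cells by 1.69 (SE 0.382, limma adjusted p = 0.0106), a 3.14-fold ratio of mean FPKM. The latter was not called within the samples with the higher ribosomal protein sum alone (1.74, limma adjusted p = 0.212). Beta cells had less O3far1 than alpha cells (log2 difference -2.91, SE 0.423, limma adjusted p = 0.000333). Two-sided exact permutation tests gave p = 0.00952 for delta against beta cells and p = 0.0159 for beta against alpha cells, each the smallest possible for these numbers of samples, and p = 0.00866 for delta against alpha cells. By rank among the 38283 genes, 5.41% had a higher mean than O3far1 in delta cells, 13.9% in alpha cells and 47.1% in beta cells.

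Where single reads could be resolved, O3far1 rested on about 452 to 817 reads in delta cell replicates 1 to 4 and on about 157 and 122 reads in alpha cell replicates 2 and 5. In the set with the higher ribosomal protein sum, O3far1 had a mean of 11.2 FPKM in alpha cells (n = 3) and 37.4 FPKM in delta cells (n = 2), and in the other set of 3.33 FPKM (n = 2) and 19.3 FPKM (n = 4). The delta cell samples lay above the alpha cell samples within each set. The mean of O3far1 in alpha cells was 31.9% of that in delta cells, and of the 3 delta cell markers Sst was at 0.992%, Hhex, a transcription factor gene, at 0.991% and Rbp4, a retinol carrier gene, at 45.9%. The 3 markers summed to 102581 to 267799 FPKM in delta cells and to 1405 to 3345 FPKM in alpha cells. Ppy, which encodes the hormone of PP cells, was at 17728 to 41392 FPKM in alpha cells, 10857 to 48600 FPKM in delta cells and 16.9 to 98.1 FPKM in beta cells, which were thus lowest for Ppy as for O3far1. The part of delta cell RNA or of PP cells in the level of O3far1 was not tested. The summed FPKM of 5 acinar markers was between 2.26 and 455 in delta cells, 0.122 and 58.6 in alpha cells and 0.0283 and 10.1 in beta cells. Each of the 5 markers had a higher mean in delta than in alpha and in alpha than in beta cells, which is the order of O3far1. Their sum was highest in delta cell replicate 4, where O3far1 was 18.4 FPKM, below its median of 21.3 FPKM over delta cells. The part of acinar RNA in the level of O3far1 was not tested.

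The nearest gene to O3far1 is Rbp4, whose end lies 2365 bp away on the opposite strand, so that both genes run towards each other. Rbp4 was at 728 to 3317 FPKM in delta cells, 266 to 1094 FPKM in alpha cells and 0.706 to 11.9 FPKM in beta cells. Its beta cell samples lay below all others, as for O3far1, with log2 differences of 8.22 for delta against beta cells (limma adjusted p = 2.07e-07) and -7.12 for beta against alpha cells (limma adjusted p = 2.77e-06). Between delta and alpha cells its samples overlapped and the difference was not called (1.09, limma adjusted p = 0.378). Cep55, on the other side of O3far1 and 22647 bp away, was above 0 only in beta cell replicate 2 (3.09 FPKM) and delta cell replicate 6 (0.0551 FPKM). No stretch of 50 bases of the annotated O3far1 transcript occurs in another annotated gene.

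**Figure D4:**
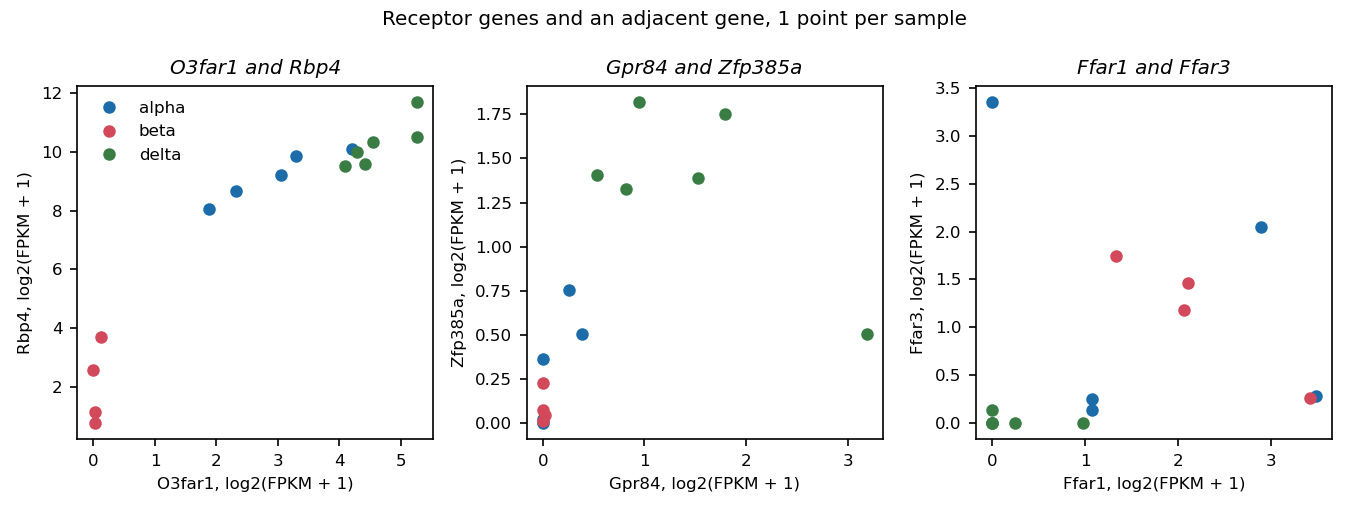
Levels of O3far1 and Rbp4, of Gpr84 and Zfp385a, and of Ffar1 and Ffar3, each pair adjacent in the genome, as log2(FPKM + 1) on both axes with 1 point per sample coloured by cell type. Beta cells are lowest for both O3far1 and Rbp4, the delta cell sample with the most Gpr84 (8.08 FPKM) has the least Zfp385a of the delta cells (0.419 FPKM), and the alpha cell sample with the most Ffar3 (9.21 FPKM) is listed at 0 for Ffar1.

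Ffar1 (ENSMUSG00000044453; chr7:30857390-30861564, minus strand, 1 exon), the other receptor for long-chain fatty acids, had low values in delta cells. It was listed at 0 in delta cell replicates 1, 2, 4 and 6, and was at 0.188 and 0.966 FPKM in replicates 3 and 5. In beta cell replicates 1 to 4 it was at 3.31, 3.18, 9.76 and 1.53 FPKM, and in alpha cell replicates 1 to 5 at 1.11, 1.10, 0, 10.2 and 6.43 FPKM. Every beta cell sample lay above every delta cell sample, while alpha cells ranged from 0 to above the highest beta cell sample. The mean was 4.45 ± 3.64 FPKM (SD, n = 4) in beta cells and 3.77 ± 4.39 FPKM (SD, n = 5) in alpha cells. Delta cells had less Ffar1 than beta cells (log2 difference -2.03, SE 0.581, limma adjusted p = 0.0271; two-sided exact permutation p = 0.00952). This call was lost in 6 of 15 fits that omitted 1 sample each, with an adjusted p up to 0.0934 without beta cell replicate 3, and with no filter on low values (limma adjusted p = 0.0947). Delta and alpha cells differed by -1.50 (95% confidence interval -2.66 to -0.35, limma adjusted p = 0.134), which was not called, and beta and alpha cells by 0.53 (-0.75 to 1.81, limma adjusted p = 0.642). The last difference was 0.10 without alpha cell replicate 3 and 0.13 without beta cell replicate 3, and turned to -0.90 within the samples with the lower ribosomal protein sum, where the mean was 4.87 FPKM in beta (n = 3) and 8.32 FPKM in alpha cells (n = 2).

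Within alpha cells the level of Ffar1 followed the ribosomal protein sets, with 0 to 1.11 FPKM in the 3 samples of the higher set and 6.43 and 10.2 FPKM in the 2 of the other. With the set as a covariate, the difference between delta and alpha cells was called (-1.79, limma adjusted p = 0.0297), and without alpha cell replicate 3 it was also called (-1.93, limma adjusted p = 0.0360). Cd22, a B cell gene that ends 3837 bp upstream of Ffar1, was at most 0.980 FPKM in any sample.

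Gpr119 (ENSMUSG00000051209; chrX:48667979-48674478, minus strand, 2 exons), the receptor for fatty acid amides, had the highest level of the 7 genes in any cell type. In alpha cell replicates 1 to 5 it was at 43.6, 72.2, 38.6, 13.6 and 22.8 FPKM. In beta cell replicates 1 to 4 it was at 4.42, 18.4, 1.67 and 1.97 FPKM, and in delta cell replicates 1 to 6 at 3.88, 4.74, 1.56, 1.08, 1.79 and 0.803 FPKM. Every alpha cell sample lay above every delta cell sample, and beta cell replicate 2 was the only beta cell sample within the range of alpha cells. The means were 38.2 ± 22.5 (SD, n = 5), 6.61 ± 7.93 (SD, n = 4) and 2.31 ± 1.61 FPKM (SD, n = 6) in alpha, beta and delta cells. Delta cells had less Gpr119 than alpha cells (log2 difference -3.49, SE 0.535, limma adjusted p = 0.000431; two-sided exact permutation p = 0.00433, the smallest possible). Beta cells also had less Gpr119 than alpha cells (log2 difference -2.66, SE 0.592, limma adjusted p = 0.0113; two-sided exact permutation p = 0.0317), a call lost without beta cell replicate 4 (adjusted p = 0.0515) and in a limma fit of these cells alone (adjusted p = 0.0832). Delta and beta cells differed by -0.83 (95% confidence interval -2.04 to 0.38, limma adjusted p = 0.367), which was not called. It was -0.22 without beta cell replicate 2 (limma adjusted p = 0.807) and -0.97 with the ribosomal protein set as a covariate (limma adjusted p = 0.0453).

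In each cell type Gpr119 was higher in the set with the higher ribosomal protein sum. The means of the 2 sets were 51.5 (n = 3) and 18.2 FPKM (n = 2) in alpha cells, 18.4 (n = 1) and 2.69 FPKM (n = 3) in beta cells, and 4.31 (n = 2) and 1.31 FPKM (n = 4) in delta cells. Within both sets the alpha cells had the highest mean and the delta cells the lowest. Beta cell replicate 2 also had the most Gcg of the beta cell samples, 1817 FPKM. Its Gpr119 was 48.1% of the mean of alpha cells, and among alpha cell markers Irx1 was listed at 0 in it and Gcg and Irx2 were at 0.666% and 4.69% of theirs. The genes on both sides of Gpr119, Slc25a14 and Rbmx2, were not called in any pair of cell types (smallest limma adjusted p = 0.168, Rbmx2 in beta against alpha cells).

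Gpr84 (ENSMUSG00000063234; chr15:103308235-103310612, minus strand, 2 exons), the receptor for medium-chain fatty acids, was at 2.47, 8.08, 0.450, 0.765, 0.923 and 1.87 FPKM in delta cell replicates 1 to 6. In alpha cell replicates 1 to 5 it was at 0.192, 0, 0, 0 and 0.308 FPKM, and in beta cells it was above 0 only in replicate 3, at 0.0148 FPKM. All delta cell samples lay above all alpha and beta cell samples, with a range that replicate 2 stretched upwards. The log2 difference was 1.46 for delta against beta cells (SE 0.412, limma adjusted p = 0.0249; two-sided exact permutation p = 0.00952) and 1.34 for delta against alpha cells (SE 0.386, limma adjusted p = 0.0479; two-sided exact permutation p = 0.00433). The second of these calls held in 5 of 15 fits that omitted 1 sample each and the first in 13, with adjusted p up to 0.0928 and 0.0551. The call against alpha cells was also lost under 8 other alternatives and that against beta cells under 4, with the same direction. Within the samples with the lower ribosomal protein sum the difference from alpha cells was 0.76 (limma adjusted p = 0.182) and that from beta cells 0.95 (limma adjusted p = 0.0225). Mean Gpr84 in delta cells was 1.00 FPKM in that set (n = 4) and 5.28 FPKM in the higher set (n = 2), the latter including replicate 2. Without delta cell replicate 2, the difference was 1.12 (adjusted p = 0.0121) from beta cells and 1.00 (adjusted p = 0.0259) from alpha cells (limma). Beta and alpha cells differed by -0.12 (95% confidence interval -1.03 to 0.79, limma adjusted p = 0.913).

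About 20.9 to 124 reads lay behind the values of Gpr84 in delta cell replicates 1 to 4, and about 11.9 reads behind that of alpha cell replicate 5. Since Gpr84 is known from myeloid cells, their markers were examined. The summed FPKM of the 9 myeloid markers found, of 10 listed, was 1.56 to 5.79 in delta cells, 0.999 to 4.53 in alpha cells and 2.55 to 16.1 in beta cells. Fcer1g made up most of the sum in beta cells, where its mean was 6.34 FPKM, and 7 of the 9 markers had their highest mean in delta cells, as did Gpr84. This was not particular to myeloid markers. All acinar and endothelial markers examined and most duct markers were also highest there, while B cell and most stellate and mural markers were not. Among the 7 myeloid markers, Tyrobp (0.559 FPKM) and Emr1 (0.0799 FPKM) had no value above 0 outside delta cells. Cd14 was at 0.0885 to 0.734 FPKM in delta cells and at most 0.0775 FPKM in alpha cells, and was listed at 0 in each beta cell sample. Without Fcer1g the remaining 8 summed to 0.166 to 4.19 FPKM in delta cells, 0.328 to 1.32 FPKM in alpha cells and 0.00606 to 2.79 FPKM in beta cells. Within delta cells this sum was lowest in replicate 2, which had the most Gpr84, and highest in replicate 5. The part of myeloid cells in the level of Gpr84 was not tested. Zfp385a, a zinc finger gene 3282 bp upstream of Gpr84 on the same strand, was also higher in delta cells, at 0.419 to 2.53 FPKM against 0 to 0.686 FPKM in alpha cells and at most 0.170 FPKM in beta cells. Its log2 difference was 1.28 for delta against beta cells (limma adjusted p = 0.00764) and 1.04 for delta against alpha cells (limma adjusted p = 0.0290). An antisense gene, Gm49482, overlaps Gpr84 and shares 37.8% of its stretches of 50 bases, so without strand their reads cannot be told apart.

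Of the receptors for short-chain acids, Ffar2 (ENSMUSG00000051314; chr7:30818348-30823775, minus strand, 6 annotated transcripts) was above 2 FPKM in all 15 samples. In alpha cell replicates 1 to 5 it was at 9.47, 15.3, 8.48, 9.43 and 8.22 FPKM. In beta cell replicates 1 to 4 it was at 2.17, 6.24, 2.6 and 2.75 FPKM, and in delta cell replicates 1 to 6 at 7.13, 7.38, 5.75, 3.21, 5.33 and 5.10 FPKM. Every alpha cell sample lay above every sample of the other cell types, and beta and delta cells overlapped. The means were 10.2 ± 2.90 (SD, n = 5), 3.44 ± 1.88 (SD, n = 4) and 5.65 ± 1.52 FPKM (SD, n = 6) in alpha, beta and delta cells. Beta cells had less Ffar2 than alpha cells (log2 difference -1.38, SE 0.324, limma adjusted p = 0.0163; two-sided exact permutation p = 0.0159), a call lost when limma was fitted to alpha and beta cells alone (adjusted p = 0.0711). Delta and alpha cells differed by -0.75 (95% confidence interval -1.37 to -0.13, limma adjusted p = 0.173), which was not called, although the samples did not overlap (two-sided exact permutation p = 0.00433). That difference was called once samples were scaled by median-ratio factors (-0.89, limma adjusted p = 0.0358) or quantile normalization (-0.95, limma adjusted p = 0.0282). Delta and beta cells differed by 0.63 (-0.03 to 1.29, limma adjusted p = 0.199), which was called without beta cell replicate 2 (0.89, limma adjusted p = 0.0428).

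Ffar3 (ENSMUSG00000019429; chr7:30854330-30856178, minus strand, 2 annotated transcripts) was listed at 0 in 5 of 6 delta cell samples and was at 0.102 FPKM in replicate 4. In beta cell replicates 1 to 4 it was at 1.75, 1.26, 0.199 and 2.36 FPKM, and in alpha cell replicates 1 to 5 at 0.190, 0.0956, 9.21, 0.219 and 3.13 FPKM. Every beta cell sample lay above every delta cell sample, and 3 of the 5 alpha cell samples were below 0.3 FPKM. No pair of cell types was called in limma. The log2 difference was -1.14 for delta against beta cells (95% confidence interval -2.29 to 0.01, limma adjusted p = 0.180), -1.19 for delta against alpha cells (-2.27 to -0.11, limma adjusted p = 0.228) and -0.05 for beta against alpha cells (-1.24 to 1.14, limma adjusted p = 0.992). Without alpha cell replicate 3 the last 2 were -0.66 and 0.48 (limma adjusted p = 0.508 and 0.537). Taken as a single gene, the two-sided exact permutation tests gave p = 0.00952, p = 0.00866 and p = 0.952 for the 3 pairs in that order, with all samples. With a pseudocount of 0.1 in place of 1, delta against beta cells was called (-3.37, limma adjusted p = 0.0305).

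Ffar1 and Ffar3 lie 1211 bp apart on the same strand, and Ffar2 a further 30554 bp away. Low values in delta cells were shared by Ffar1 and Ffar3 but not by Ffar2. The alpha cell sample with the most Ffar3, replicate 3, was the one listed at 0 for Ffar1, and the alpha cell sample with the most Ffar1, replicate 4, had 0.219 FPKM of Ffar3. In beta cells likewise, replicate 3 had the most Ffar1 and the least Ffar3, and replicate 4 the least Ffar1 and the most Ffar3. Other samples did not follow this. Alpha cell replicate 5 was second highest of the alpha cells for both genes (6.43 and 3.13 FPKM), and replicates 1 and 2 were low for both. Over the 15 samples Pearson's r of log2(FPKM + 1) between Ffar1 and Ffar3 was 0.141. No stretch of 50 bases of Ffar3 occurs in another annotated gene, and 0.802% of those of Ffar1 and 0.322% of those of Ffar2 do.

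Gpr81 (ENSMUSG00000049241; chr5:123876736-123880020, minus strand, 1 exon), the lactate receptor, was at 7.56, 16.9, 3.36, 6.02 and 8.27 FPKM in alpha cell replicates 1 to 5. In delta cell replicates 1 to 6 it was at 0.304, 1.18, 0.498, 0.307, 0.0207 and 0.248 FPKM, and in beta cell replicates 1 to 4 at 0.0674, 0, 0 and 0.0117 FPKM. All alpha cell samples lay above all others. Beta cells had less Gpr81 than alpha cells (log2 difference -3.05, SE 0.355, limma adjusted p = 3.55e-05; two-sided exact permutation p = 0.0159), and so did delta cells (log2 difference -2.61, SE 0.321, limma adjusted p = 5.31e-05; two-sided exact permutation p = 0.00433). Within the samples with the higher ribosomal protein sum the latter was -2.37 and not called (limma adjusted p = 0.287). Delta and beta cells differed by 0.44 (95% confidence interval -0.28 to 1.17, limma adjusted p = 0.432), with a two-sided exact permutation p of 0.0190 for the gene alone. The values in delta cell replicates 1 to 4 rested on about 10.2 to 46.9 reads, against about 387 and 648 reads in alpha cell replicates 2 and 5. The mean in delta cells was 5.07% of that in alpha cells. Among alpha cell markers, Gcg was at 0.189%, Irx1 at 1.95% and Irx2 at 9.57% in the same terms, and the part of alpha cell RNA in the level of Gpr81 in delta cells was not tested. Niacr1 (an older symbol for Hcar2), which encodes a receptor for nicotinic acid and ketone bodies and lies 11236 bp away, was at 0.251 to 3.74 FPKM in alpha cells and at most 0.424 FPKM in any other sample, and was not called in any pair (smallest limma adjusted p = 0.164).

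For each receptor the 3 genes with the most similar pattern were sought among the genes tested, by Pearson's r of log2(FPKM + 1) over the 15 samples, which fall into 3 cell types. For O3far1 they included BC017612 (r = 0.976) and Wfdc16 (0.974). Wfdc16 had means of 78.2, 15.9 and 0.373 FPKM in delta, alpha and beta cells. For Gpr81 they were Gfra3 (0.968), a co-receptor gene of the GDNF family, Ppp2r2b (0.965) and Pou3f4 (0.960), a transcription factor gene. Gfra3 had a mean of 15.4 FPKM in alpha cells and of 0.0952 and 0.295 FPKM in beta and delta cells. For Gpr119 they were Slc3a2 (0.962), Tmsb15l (0.959) and Cmtm8 (0.946), and for Ffar2 Trim35 (0.930), Cryba2 (0.930) and the ribosomal protein gene Rps15 (0.919). For Gpr84 they were Gm16201 (0.978), AC020973.1 (0.951) and Adssl1 (0.936), each with a delta cell mean under 3 FPKM. The values of r were lower for Ffar1, with Wnt4 (0.875), Scrt1 (0.820) and 1700042O10Rik (0.818), and for Ffar3, with n-R5s196 (0.884), Usp40 (0.875) and Gm5453 (0.844).

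Other receptors for metabolites and lipid mediators formed a list of 35 genes, of which 34 were in the table and 8 passed the filter. In delta against beta cells 1 of the 8 was called by limma (12.5%, near the 14.7% of all genes), and 0 were called in the other pairs. The gene called, Gpr142, a receptor for tryptophan and related amino acids, was higher in delta (7.38 FPKM) than in beta cells (2.04 FPKM), with a log2 difference of 1.41 (limma adjusted p = 0.0466), and its mean in alpha cells was 8.29 FPKM. At an unadjusted p under 0.05 in limma, 2 of the 8 passed for beta against alpha cells, 2 for delta against alpha cells and 1 for delta against beta cells (25.0%, 25.0% and 12.5%, beside 22.9%, 16.7% and 28.4% of all genes). The medians of the log2 differences of the 8 genes were -0.0029, 0.30 and 0.35 in these 3 pairs, beside -0.13, 0.13 and 0.30 over all genes tested.

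Of 34 genes for G proteins and effectors through which such receptors act, 27 were tested. In beta against alpha cells 2 were lower and 0 higher, or 7.41% of the list beside 7.66% of all genes, a share near the background. They were Gnas, which encodes the alpha subunit of Gs (-2.52, limma adjusted p = 0.000589), and Gnai1, which encodes an alpha subunit of Gi (-2.61, limma adjusted p = 0.00603). At an unadjusted p under 0.05, 6 of the 27 passed in that pair (22.2%, beside 22.9% of all genes). In delta against alpha cells 5 were higher and 2 lower (25.9% of the list, beside 6.81% of all genes), and in delta against beta cells 6 were higher and 1 lower (25.9%, beside 14.7%). Among the genes higher in delta cells than in both others were the adenylyl cyclase genes Adcy8 (log2 difference from alpha cells 1.76, limma adjusted p = 7.29e-05) and Adcy2 (1.52, limma adjusted p = 0.000178). Both passed the filter only through delta cells (means 2.52 and 2.05 FPKM), with at most 0.0574 FPKM on average in alpha or beta cells. So did Gnal, also counted as higher in delta than in alpha cells (1.88 against 0.278 FPKM). The counts thus rest in part on such genes. Prkd1, which encodes protein kinase D1, was lower in delta than in alpha cells (-1.79, limma adjusted p = 0.000333) and than in beta cells (-2.54, limma adjusted p = 1.50e-05). The medians of the list were -0.02, 0.59 and 0.77 for beta against alpha, delta against alpha and delta against beta cells, beside the medians over all genes given above.

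Of 31 genes for the release, uptake and activation of the ligands, 25 were tested. In beta against alpha cells 1 was higher and 3 were lower (16.0% of the list, beside 7.66% of all genes). In delta against alpha and delta against beta cells 4 were higher and 2 lower in each (24.0%, beside 6.81% and 14.7% of all genes). Lpl, which encodes lipoprotein lipase, had means of 48.1 and 22.1 FPKM in alpha and beta cells and 1.00 FPKM in delta cells (delta against alpha cells -4.52, limma adjusted p = 1.04e-05). Slc16a7, which encodes a carrier of lactate and pyruvate, was at 13.0 FPKM in delta cells against 1.14 FPKM in alpha and 0.00917 FPKM in beta cells (delta against beta cells 3.68, limma adjusted p = 3.33e-06). The fatty acid transporter genes Cd36 and Slc27a2 were lower in beta than in alpha cells (-2.68 and -2.41, adjusted p = 0.0115 and 0.00156, limma). Slc27a2 passed the filter only through alpha cells, and Fabp5, counted as higher in delta cells, only through delta cells. Acsl6, an acyl-CoA synthetase gene, was higher in beta (8.40 FPKM) and in delta cells (9.18 FPKM) than in alpha cells (1.73 FPKM), with adjusted p of 0.0218 and 0.00364 (limma). The medians of the list were -0.11, 0.38 and 0.48 in the 3 pairs.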

How the data were processed

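RNA of 15 samples of sorted islet cells was amplified (NuGEN Ovation) and read as single 50 nt sequences. The authors mapped these to GRCm38 with TopHat (2.0.8 in the submitters' notes) and deposited Cufflinks 2.2.1 FPKM per gene for 38283 genes; the annotation release is not given in the sources used here. The authors' edgeR test used read counts, not used here, so limma 3.58.1 (R 4.3.3; lmFit, eBayes with trend) was fitted to log2(FPKM + 1) with all 15 samples and no covariate, over 14405 genes with a mean above 1 FPKM in a cell type. Calls had a Benjamini-Hochberg adjusted p under 0.05. Single genes were tested with two-sided exact permutation tests (SciPy 1.17.1), unadjusted over the members. P-values measure only the spread between pooled samples.

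Members and gene lists were chosen with earlier results of these data known. Named genes are the members, hormone genes, markers, adjacent genes, the 3 genes most like each member and, from each list and pair, up to 4 genes called without overlap between samples, with the largest differences; Gnai1 in beta against alpha cells was named outside this rule because only 2 genes were called there. Some genes chosen by this rule are not reported here. Gene models came from GENCODE M21, which is on GRCm38. The split into 2 sets by ribosomal protein FPKM (limit 50000) was set from the values. Reads per value were estimated from steps in the values of 5066 genes with 1 transcript over 1000 nt and resolved in 6 samples. The fit was tested on simulated data. Alternatives were other filters, a pseudocount of 0.1, other scalings, no trend, fits of 2 cell types, the sets, the replicate number as a block, the log2 ratio of mean FPKM and leaving out each sample. Python 3.11.15, numpy 2.4.6, pandas 2.3.3 and matplotlib 3.10.9 were used.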

Additional observations from a re-analysis of the deposited data

Results flagged for a closer look

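Each of the 7 genes was examined in each cell type for a sample whose distance from the nearest other sample was large against the range of the group. This held in 7 of 21 groups. The limit used passes about 1 in 20 groups by chance where values are normally distributed, which FPKM values with many zeros are not, so the 7 cannot be set against that rate. The samples that stood apart were beta cell replicate 2 for Gpr119 (18.4 FPKM, the next being 4.42 FPKM) and for Ffar2 (6.24 FPKM, next 2.75 FPKM), alpha cell replicate 2 for Ffar2 (15.3 FPKM, next 9.47 FPKM) and delta cell replicate 2 for Gpr84 (8.08 FPKM, next 2.47 FPKM). Those 3 samples belong to the set with the higher ribosomal protein sum. The others were low values in groups otherwise at or near 0: delta cell replicate 5 for Ffar1 (0.966 FPKM), delta cell replicate 4 for Ffar3 (0.102 FPKM) and beta cell replicate 3 for Gpr84 (0.0148 FPKM).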

How the results depend on the processing

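Of 271 values under alternatives other than leaving out a sample, all of them differences of the 7 genes, 218 kept their direction and side of the threshold (or, without a test, moved by less than 1 SD), 22 lost and 7 gained a call, 17 without a test moved, and 7 that were not called in any fit turned in sign. The last were all in beta against alpha cells. Ffar3 (-0.05) was at 0.40 with a pseudocount of 0.1, 0.028 with median-ratio factors, 0.083 with quantile normalization, and 0.049 and 0.16 with the replicate block in all cells and in alpha and beta cells alone. Gpr84 (-0.12) was at 0.081 with the ribosomal protein set as a covariate, and Ffar1 (0.53) at -0.90 within the lower set. The cause of these changes was not tested unless stated. Read depth is unknown in 9 samples, so how small a value they can show is unknown. Numbers of genes called that moved by over 1.5 times were, with a filter at 5 FPKM (9184 genes tested), 518 for delta against alpha cells, 1319 for delta against beta cells and 1450 across cell types. For beta against alpha cells they were 520 in a fit of those cells alone, 2072 with median-ratio size factors (1091 higher, against 409 of 1104 without) and 1970 with quantile normalization (937 higher). The first scaling moved the median of all genes from -0.13 to 0 in that pair, from 0.13 to 0.00 in delta against alpha cells and from 0.30 to 0.02 in delta against beta cells, and it called 722 higher and 342 lower (768 and 213 without) and 1379 higher and 1297 lower (1683 and 431 without) in those pairs.

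The correlation of deviations from the cell type mean between same-numbered samples averaged 0.0762 (-0.152 to 0.281, 13 pairs). Between samples of unlike number it averaged -0.016 (-0.352 to 0.339, 61 pairs). Delta cells came from another mouse line, so only alpha and beta samples could share animals. For numbers 1 to 4 these gave -0.0395, 0.271, -0.152 and 0.0731, too few values to decide whether the numbers pair the samples. With the replicate number as a block, Gpr84 was at 1.33 (adjusted p = 0.107) and 1.48 (0.0541) in delta against alpha and beta cells and Ffar1 at -2.23 (0.0530) in delta against beta cells (limma). With that replicate block in a fit of alpha and beta cells alone, limma called 0 genes (2751 at an unadjusted p under 0.05), and Ffar2, O3far1, Gpr119 and Gpr81 were at -1.44, -3.07, -2.79 and -3.02 (adjusted p 0.0857 to 0.141).

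With no filter (38283 genes tested), Gpr84 at 1.34 and 1.46 and Ffar1 at -2.03 kept their log2 differences and lost the call (adjusted p 0.121, 0.0672 and 0.0947). In fits of only the 2 cell types compared, Ffar2 at -1.38 and Gpr119 at -2.66 in beta against alpha cells and Gpr84 at 1.34 and 1.46 lost the call, and Ffar3 at -1.14 in delta against beta cells gained it (adjusted p = 0.0107, limma). With a pseudocount of 0.1 Ffar3 was at -3.37 in that pair. Median-ratio factors gave -0.89 for Ffar2 and 1.24 for Gpr84 (adjusted p = 0.05005, just above the threshold), and quantile normalization -0.95 and 1.05, in delta against alpha cells, and 1.14 for Gpr84 against beta cells. Under quantile normalization the calls of Gpr84 against alpha and against beta cells were lost (limma adjusted p = 0.150 and 0.0816). Without a trend Gpr84 was at 1.34 (adjusted p = 0.0508) in delta against alpha cells. With the ribosomal protein set as a covariate Ffar1 was at -1.79 in delta against alpha and Gpr119 at -0.97 in delta against beta cells. Within the lower set Ffar1 was at -2.88 and Gpr84 at 0.76 in delta against alpha cells. Within the higher set (1 beta cell sample, so no test was used against it), O3far1, Gpr84 and Gpr81 were at 1.74, 2.40 and -2.37 in delta against alpha cells, not called, Ffar2 and Gpr119 at -0.70 and -1.39 in beta against alpha cells, and Ffar2, Gpr119 and Gpr84 at 0.19, -1.87 and 2.49 in delta against beta cells.

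As log2 ratios of mean FPKM, which do not compress low values, beta against alpha cells gave -8.15 for O3far1, -4.75 for Gpr84 and -8.73 for Gpr81. Delta against alpha cells gave -4.29 for Ffar1, -7.24 for Ffar3, 4.60 for Gpr84 and -4.30 for Gpr81. Delta against beta cells gave -4.53 for Ffar1, -6.35 for Ffar3, 9.80 for O3far1, 9.35 for Gpr84 and 4.43 for Gpr81. Several of these ratios rest on means near 0 that 1 sample carries. The mean was 0 for Gpr84 in beta cells without replicate 3 and for Ffar3 in delta cells without replicate 4. In beta cells it fell from 0.0198 to 0.00389 FPKM for Gpr81 without replicate 1, and from 0.0284 to 0.00984 FPKM for O3far1 without replicate 2.

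Leaving out each sample in turn gave 1786 to 2962 genes called across cell types, 698 (without beta cell replicate 4) to 1743 (without beta cell replicate 2) for beta against alpha cells, 849 to 1195 for delta against alpha cells and 1499 to 2703 for delta against beta cells. The log2 difference then ranged from -1.93 to -1.06 for Ffar1 in delta against alpha cells and from -2.33 to -1.63 in delta against beta cells, from 0.10 to 0.97 for Ffar1 in beta against alpha cells, from -0.32 to 0.48 for Ffar3 in beta against alpha and -1.46 to -0.66 in delta against alpha cells, from -1.17 to -0.22 (without beta cell replicate 2) for Gpr119 in delta against beta cells, from 0.50 to 0.89 for Ffar2 in delta against beta cells, from -3.28 to -2.32 for Gpr119 in beta against alpha cells, and for Gpr84 from 1.00 to 1.52 in delta against alpha cells and from 1.12 to 1.65 in delta against beta cells. Calls of O3far1 and Gpr81 and those of Ffar2 in beta against alpha cells and Gpr119 in delta against alpha cells held in 15 of 15 such fits.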
